A study of Saccharomyces cerevisiae with 8 samples.

Results

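The 10 genes described here serve non-fermentative carbon use, and were given by symbol: the activators CAT8, SIP4 and ADR1, the gluconeogenesis genes FBP1 and PCK1, the glyoxylate cycle genes ICL1 and MLS1, the ethanol and acetate genes ADH2 and ACS1, and the lactate and pyruvate permease gene JEN1. They were found as Saccharomyces cerevisiae probe sets through the gene symbol in the platform's gene table, which gave 1 probe set for each, so that they are 10 of 5392 genes tested. The mutant strain, RRC85, is MATα and carries the CDC34tm allele marked by nourseothricin resistance (NatR). The comparison strain, the isogenic wild type (WT) DBY2059, is MATα, and the growth protocol gives leu2-3, 112 for it. Cdc34 is the ubiquitin-conjugating enzyme of SCF ubiquitin ligases. The medium was synthetic, with 2% dextrose, 0.25% glutamine and 25.2 mg/L leucine, and cells left stationary phase to double 3 to 4 times at 30 °C. From each strain, 4 separate cultures were measured, 1 array per culture. The labels of all samples also list a partly disrupted PST1 3' region and the leu2 allele among the variables, so which strain carries the leu2 allele is not settled by them. Each genotype was 1 strain, so the effect of the CDC34tm allele and that of any such other difference cannot be told apart.

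On glucose, budding yeast ferments and keeps these genes repressed. When glucose runs out, the kinase Snf1 acts on the repressor Mig1 and on the activators Cat8, Sip4 and Adr1, and the enzymes are made that turn ethanol, acetate or lactate back into sugar. Isocitrate lyase and malate synthase bypass the decarboxylating steps of the tricarboxylic acid cycle, phosphoenolpyruvate carboxykinase and fructose-1,6-bisphosphatase carry out the steps that glycolysis cannot run in reverse, and on return to glucose the GID ubiquitin ligase marks several of these enzymes for destruction.

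All values are MAS5 signals, array intensities on a linear scale. Background was set on each array at the 95th percentile of the Schizosaccharomyces pombe probe sets, a species not present in these cultures, and lay between 12.3 and 14.6. The median signal of S. cerevisiae probe sets was 1162 to 1225 on the CDC34tm arrays and 1222 to 1244 on the WT arrays. The mRNA of CDC34 itself had a log2 fold change of 0.01 (95% interval -0.16 to 0.19, limma adjusted p = 0.899). WT replicates 1 and 4 stood apart in heat shock genes. Over 22 such genes the median of log2(signal + 16) was 10.9 to 11.1 in CDC34tm cultures, but in WT it was 12.7 (replicate 1), 11.5 (replicate 2), 11.4 (replicate 3) and 12.8 (replicate 4). HSP42, a small heat shock protein gene, ranged from 144 to 188 in CDC34tm cultures. In WT it read 5770 (replicate 1), 978 (replicate 2), 652 (replicate 3) and 6744 (replicate 4). HSP82, an Hsp90 gene, was likewise highest in WT replicates 1 and 4. It read 447 to 538 in CDC34tm against 6920, 815, 943 and 7528 in WT replicates 1 to 4. Several results that moved with these arrays are also given without them.

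In glucose medium the 10 genes did not move as a group in CDC34tm cells. The activator genes CAT8 and SIP4 rose, 2.58-fold and 1.51-fold, ICL1 fell 1.76-fold, and the other 7 did not pass the test. The test was limma on log2(signal + 16) across 5437 probe sets, with Benjamini-Hochberg adjustment and a threshold of 0.05, so folds are ratios of signal + 16. Two-sided calls in that fit covered 38.6% of all probe sets, 18.9% higher and 19.7% lower, so 2 of 10 higher and 1 of 10 lower is close to or under the background. In counts, 1028 probe sets were higher and 1072 lower. After median centring of the arrays these became 1327 higher and 889 lower, while CAT8, SIP4 and ICL1 kept their calls. Calls of at least 1.5-fold were less common in the whole table, at 3.73% higher and 6.51% lower, and the same 3 genes met that size. CAT8, SIP4 and ICL1 were without overlap between the strains, as were 39.5% of all probe sets. The median log2 fold change was 0.24 over the 10 genes and 0.00 over all probe sets, and 9 of the 10 estimates were above 0, against 2719 of 5437 overall. All 10 estimates were lower without CDC34tm replicate 4, and those of ADH2 (-0.046) and MLS1 (-0.027) then fell below 0.

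**Figure D1:**
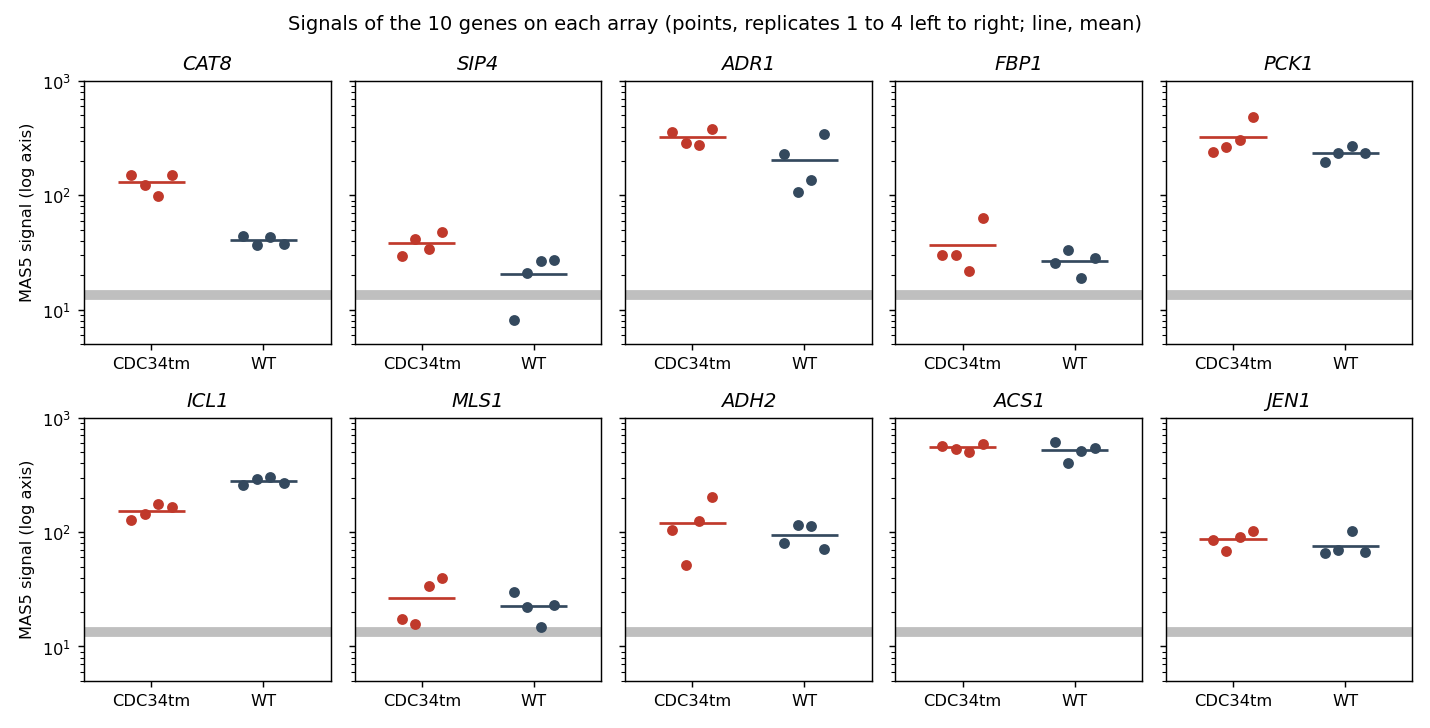
MAS5 signal (log axis) of each of the 10 genes, with the 4 CDC34tm arrays in red left of the 4 WT arrays in dark blue, replicates 1 to 4 from left to right, lines at the means and a grey band for the background of 12.3 to 14.6. CAT8 and SIP4 lie higher and ICL1 lower in CDC34tm without overlap, and SIP4, FBP1 and MLS1 lie nearest the background.

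CAT8 encodes the zinc cluster activator that switches on gluconeogenic and glyoxylate genes. It read 152, 124, 98.5 and 150.5 on the CDC34tm arrays, and 44.1, 37.0, 43.0 and 37.4 on the WT arrays. Every CDC34tm culture lay far above every WT culture, and the WT cultures were close to each other. The CDC34tm mean was 131 ± 25.2 against 40.4 ± 3.70 for WT (SD, n = 4 each). This gave a log2 fold change of 1.37 ± 0.14 (SE, 95% interval 1.06 to 1.68, limma adjusted p = 9.38e-05). The added 16 understates such a dim gene, and the log2 fold change was 1.66 with 1 added and 0.89 with 64 added. In RNA from whole cultures, more cells expressing a gene and more mRNA per cell cannot be told apart.

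SIP4, a related zinc cluster activator that binds the same carbon source response elements, read 29.6, 41.4, 34.2 and 48.1 in CDC34tm and 8.11, 20.9, 26.6 and 27.2 in WT. All CDC34tm cultures were above all WT cultures, but the gap was narrow and WT replicate 1 lay below the background of its array. The log2 fold change was 0.59 ± 0.20 (SE, 95% interval 0.14 to 1.04, limma adjusted p = 0.042). This call did not hold without CDC34tm replicates 2, 3 or 4 or WT replicates 1 or 2, taken singly (adjusted p from 0.062 to 0.11). It was also lost without WT replicates 1 and 4 together (log2 fold change 0.44, adjusted p = 0.082) and with a pseudocount of 1 (0.96, adjusted p = 0.0568).

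ADR1 encodes the zinc finger activator of ADH2 and of peroxisomal genes. Its signals were 359.6, 287, 277 and 379 in CDC34tm, and 232, 107, 135 and 342 in WT. The CDC34tm cultures exceeded WT replicates 1, 2 and 3, while WT replicate 4 lay within their range. With all arrays ADR1 was not called (log2 fold change 0.75 ± 0.29, SE, 95% interval 0.09 to 1.40, limma adjusted p = 0.0678). The WT cultures with the higher ADR1 signals were those with the higher heat shock list. Without WT replicates 1 and 4, the log2 fold change was 1.31 and ADR1 was called (adjusted p = 2.23e-04). Against WT replicates 1 and 4 alone, it was 0.18 and not called (adjusted p = 0.398). It was also called without WT replicate 4 alone (1.02, adjusted p = 0.00853) and after quantile normalization (0.84, adjusted p = 0.038). The part of the heat shock state of these cultures in the ADR1 result was not tested.

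**Figure D2:**
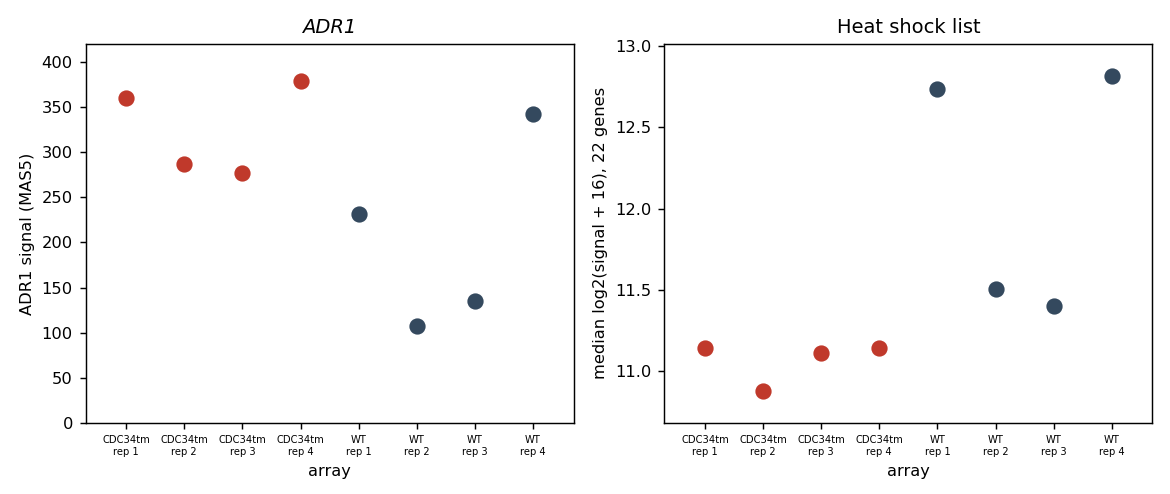
Left, ADR1 signal on each array; right, median log2(signal + 16) of 22 heat shock genes on the same arrays, with CDC34tm in red and WT in dark blue. WT replicates 1 and 4 are the highest WT arrays in both panels, whereas the CDC34tm arrays are high for ADR1 (277 to 379) and low for the heat shock list (10.9 to 11.1).

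The gluconeogenesis genes proper did not pass the test. PCK1, phosphoenolpyruvate carboxykinase, read 240.5, 264, 302 and 483 in CDC34tm, and 196, 234, 273 and 233 in WT. CDC34tm replicate 4 lay far above the rest, replicate 3 was also above every WT culture, and replicates 1 and 2 lay within the WT range. The log2 fold change was 0.39 (95% interval -0.04 to 0.83, limma adjusted p = 0.132), and 0.19 without CDC34tm replicate 4 (adjusted p = 0.291). FBP1, fructose-1,6-bisphosphatase, read 30.4, 29.9, 21.97 and 63.8 in CDC34tm, and 25.6, 33.1, 18.9 and 28.3 in WT. It was above background on all 8 arrays, but close to it. Its log2 fold change was 0.26 (95% interval -0.23 to 0.75, limma adjusted p = 0.384), and 0.04 without CDC34tm replicate 4.

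The glyoxylate cycle genes differed from each other. ICL1, isocitrate lyase, read 129, 144, 175 and 165 in CDC34tm, and 259, 290.4, 305 and 269.9 in WT. The highest CDC34tm culture lay well below the lowest WT culture, and the spread within each strain was small. CDC34tm averaged 153 ± 21.0 against a WT mean of 281 ± 20.5 (SD, n = 4 each), a log2 fold change of -0.82 ± 0.11 (SE, 95% interval -1.06 to -0.58, limma adjusted p = 4.51e-04). The fall was of similar size without WT replicates 1 and 4 (-0.90, adjusted p = 7.89e-04) and without WT replicates 2 and 3 (-0.74, adjusted p = 0.00125). MLS1, malate synthase, which uses the glyoxylate that isocitrate lyase makes, read 17.2, 15.6, 34.0 and 39.9 in CDC34tm, and 29.8, 22.1, 14.9 and 23.2 in WT. Several of these signals were barely above background. CDC34tm replicates 3 and 4 lay above every WT culture, and replicates 1 and 2 lay within the WT range. Its log2 fold change was 0.12 (95% interval -0.36 to 0.59, limma adjusted p = 0.687), and it turned to -0.027 without CDC34tm replicate 4.

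CAT8 and ICL1 thus moved in opposite directions in the same cultures. Within an array, log2 CAT8 minus log2 ICL1, each as signal + 16, was 0.21, -0.19, -0.74 and -0.12 in CDC34tm, and -2.19, -2.53, -2.44 and -2.42 in WT. This pair was chosen after the values were seen, so its difference is a description. Of the genes beside ICL1 in the RefSeq order of the R64 assembly, RRT13 was lower (-0.36, limma adjusted p = 0.00942) and VHR2 higher (0.49, limma adjusted p = 0.014). Beside CAT8, GPI12 had a log2 fold change of 0.02 (limma adjusted p = 0.88). ATR2, on the other side of CAT8, had no probe set named in the platform's gene table and was not read. Beside SIP4, DPB11 (-0.05) and ARG3 (-0.35) were not called, with limma adjusted p of 0.779 and 0.343.

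**Figure D3:**
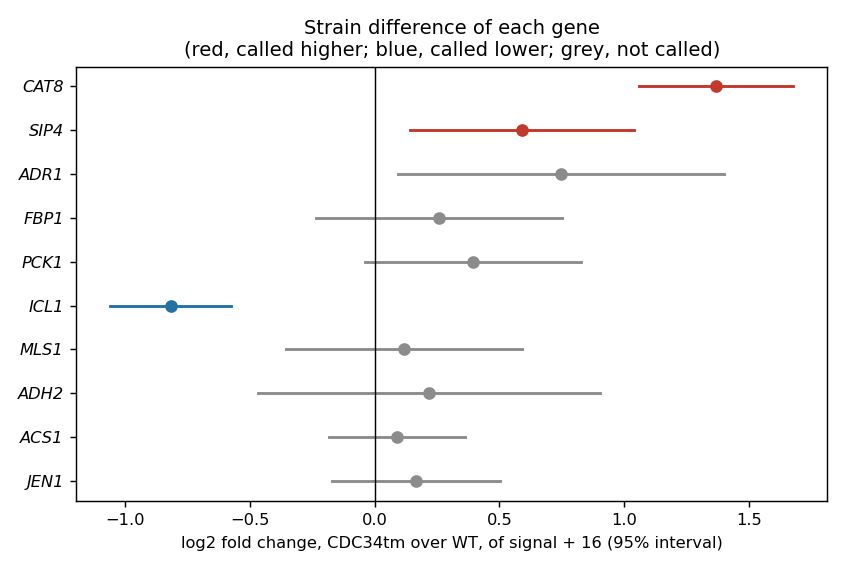
Log2 fold change of signal + 16, CDC34tm over WT, with its 95% interval for each of the 10 genes; red marks genes called higher, blue called lower and grey not called. The intervals of CAT8 (1.06 to 1.68) and ICL1 (-1.06 to -0.58) lie far from 0 on opposite sides.

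Genes for the entry of ethanol, acetate and lactate were not called. ADH2, the alcohol dehydrogenase that oxidises ethanol, read 105, 51.9, 125 and 202 in CDC34tm, and 79.5, 115, 112 and 70.6 in WT. CDC34tm held both the highest and the lowest of these signals. The log2 fold change was 0.22 (95% interval -0.47 to 0.90, limma adjusted p = 0.607), and it was -0.046 without CDC34tm replicate 4 and -0.037 without WT replicates 1 and 4. ADH1, its close sequence relative, which reduces acetaldehyde during fermentation, had a log2 fold change of 0.00 (95% interval -0.12 to 0.12, limma adjusted p = 0.966).

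ACS1, the acetyl-CoA synthetase of non-fermentative growth, read 571, 529.5, 503 and 593 in CDC34tm, and 617, 404, 513 and 546 in WT. The strains overlapped, and the estimate of 0.09 on the log2 scale had a 95% interval of -0.18 to 0.36 (limma adjusted p = 0.592). It was -0.022 without WT replicate 2, 0.26 without WT replicates 1 and 4 (adjusted p = 0.0979) and -0.080 without WT replicates 2 and 3. ACS2, the synthetase used on glucose, had a log2 fold change of 0.00 (95% interval -0.13 to 0.14, limma adjusted p = 0.981). JEN1, which carries lactate and pyruvate into the cell, read 86.2, 68.6, 89.9 and 101 in CDC34tm, and 65.4, 70.02, 102 and 66.6 in WT. WT replicate 3 was level with the highest CDC34tm culture, and the other WT cultures were near the lowest. Its log2 fold change was 0.16 (95% interval -0.17 to 0.50, limma adjusted p = 0.418). With WT replicates 1 and 4 left out JEN1 had 0.017, and with WT replicates 2 and 3 left out 0.31, not called in either case.

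Cultures of the same strain differed on these genes, in both strains. The median within-strain SD of log2 signals over the 10 genes was 0.238 in CDC34tm and 0.241 in WT. CDC34tm replicate 4 was the highest of its strain for 8 of the 10 genes, the exceptions being CAT8, highest in replicate 1, and ICL1, highest in replicate 3. Over all tested probe sets it was the highest of the strain for 17.8%. It exceeded the mean of the other 3 CDC34tm cultures for 10 of 10 genes, with a median excess of 0.31 on the log2 scale, and 1.62% of all probe sets had an excess of that size or more on that array. No other array lay on one side for all 10 genes. The heat shock list did not set this culture apart (median log2 signal 11.1, within the 10.9 to 11.1 of the strain). The within-strain spread of log2 signals was widest for ADH2 in CDC34tm (SD 0.70) and ADR1 in WT (SD 0.70), against medians of 0.0885 in CDC34tm and 0.131 in WT over all probe sets. For CAT8 and ICL1 it was 0.26 and 0.18 in CDC34tm and 0.09 and 0.10 in WT. All 10 genes read below the median S. cerevisiae signal of every array. The shares and medians over all probe sets given here were not matched for signal level.

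**Figure D4:**
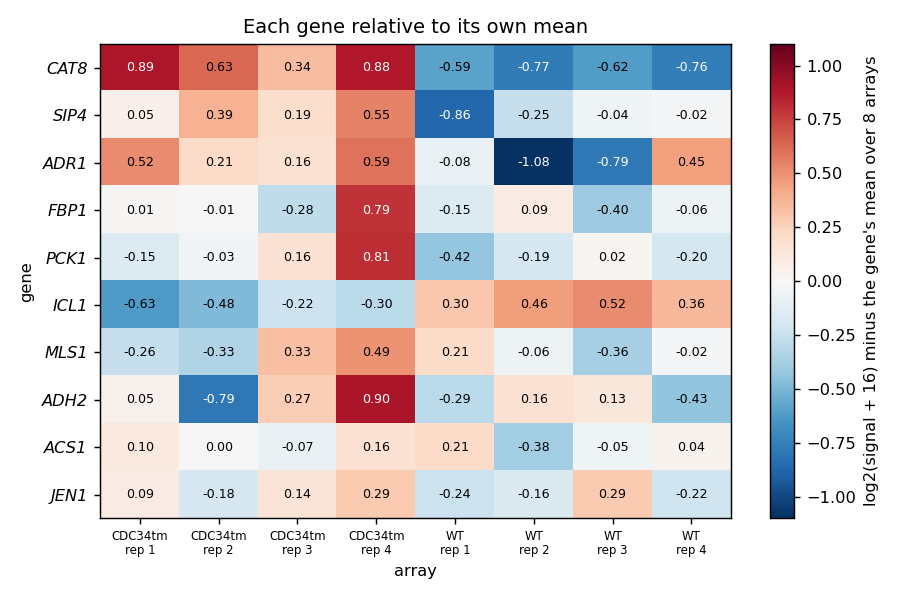
Log2(signal + 16) of each gene minus its own mean over the 8 arrays, with CDC34tm arrays on the left and WT arrays on the right; red is above and blue below the mean. CAT8 and ICL1 divide by strain in opposite directions, and the column of CDC34tm replicate 4 is the reddest of its strain for 8 of the 10 genes.

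Genes with the most similar profile were found by the root mean square difference of centred log2 signals over the 8 arrays, among 5427 probe sets outside the 10. Nearest to CAT8 were YOR316C-A (0.13) and SCW11, a cell wall glucanase gene (0.19), against a median difference of 0.72 over all. Nearest to ICL1 were SPR6 and BOP3 (0.10 each, median 0.45). Nearest to SIP4 were IME4, an mRNA methyltransferase gene, and ZRT1, the high-affinity zinc transporter gene (0.18 and 0.19, median 0.42). IME4 was near background, with 17.9 to 29.4 in CDC34tm and 6.12 to 22.4 in WT, and was not called (limma adjusted p = 0.132). It was above background on 2 of 4 WT arrays and, like SIP4, lowest on WT replicate 1.

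Of 25 partner enzymes and transporters of the same pathways, 5 rose and 7 fell, with a median log2 fold change of -0.06. These counts are near the 18.9% higher and 19.7% lower of all probe sets. ICL2, a mitochondrial 2-methylisocitrate lyase related in sequence to ICL1, rose 1.92-fold, with 858 to 1005 in CDC34tm and 433 to 538 in WT (limma adjusted p = 6.5e-05), and so moved opposite to ICL1. DAL7, the malate synthase gene of allantoin use, was not called (log2 fold change 0.15, limma adjusted p = 0.209). The malate dehydrogenase genes MDH3 (peroxisomal) and MDH2 (cytosolic) each rose by 0.40 on the log2 scale (limma adjusted p = 5.64e-04 and 0.0111). For MDH2, the strains overlapped and the call was lost without WT replicates 1 and 4 (0.28, adjusted p = 0.0554).

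CIT2, the peroxisomal citrate synthase that feeds the glyoxylate cycle, fell 1.98-fold, with 1292 to 1370 in CDC34tm and 1682 to 3367 in WT (limma adjusted p = 0.0030). Its level varied little among CDC34tm cultures and widely among WT cultures. PYC2 and PYC1, the pyruvate carboxylases that start gluconeogenesis from pyruvate, fell by 0.26 and 0.60 on the log2 scale (limma adjusted p = 0.00277 and 0.00578). GUT1, glycerol kinase, fell by 0.61 (limma adjusted p = 0.00155). SFC1, the succinate-fumarate carrier, was named after its values were seen: it read 27.5 to 30.4 in CDC34tm and 7.64 to 16.8 in WT, near background there, and was called higher (0.65, limma adjusted p = 0.00467). ALD4, the mitochondrial aldehyde dehydrogenase, was the remaining gene called higher (0.56, limma adjusted p = 0.0182). It read 1575 to 2151 in CDC34tm, and 1432, 974, 1101 and 1598 in WT replicates 1 to 4. The strains overlapped, and WT replicates 1 and 4 were the higher WT cultures for ALD4. ALD6, the cytosolic aldehyde dehydrogenase, also named afterwards, moved with the WT cultures that stood apart: it read 4468 to 5643 in CDC34tm, and 7332, 1558, 2793 and 6071 in WT replicates 1 to 4. It was not called (0.36, limma adjusted p = 0.515).

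Of 24 genes for Snf1, its partners, Mig1 and related repressors, and further activators, 2 rose and 10 fell, with a median log2 fold change of -0.25, beside 18.9% higher, 19.7% lower and a median of 0.00 over all probe sets. The list was drawn up with earlier results in view, so this difference from the whole table is a description. The largest falls were those of MIG3 and MIG2, repressors that act beside Mig1. MIG3 read 220.5 to 267 in CDC34tm and 859, 1444, 1397 and 684 in WT replicates 1 to 4. This was a 4.08-fold fall (limma adjusted p = 1.37e-04), a log2 fold change of -2.03. WT replicates 1 and 4 were the lower WT cultures for MIG3. Across the alternative settings it stayed called, with log2 fold changes of -2.47 to -1.59. MIG2 read 857 to 1206 in CDC34tm and 2220 to 3949 in WT, a 2.63-fold fall (limma adjusted p = 3.42e-04). Neither gene overlapped between the strains.

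ELM1, a kinase that activates Snf1, rose by 0.55 (limma adjusted p = 0.00511). It read 923 to 1024 in CDC34tm, and 557, 749, 799.8 and 586 in WT replicates 1 to 4. WT replicates 1 and 4 were thus the lower WT cultures for ELM1. The other kinases known to activate Snf1 did not follow it: TOS3 fell 2.03-fold, with 428 to 457 in CDC34tm and 599 to 1239 in WT (limma adjusted p = 0.00212), and SAK1 was not called (-0.17, limma adjusted p = 0.0722). MIG1 rose by 0.47 (limma adjusted p = 0.0306), with 1399 to 1650 in CDC34tm and 878 to 1423 in WT. That call was lost without any 1 of 5 arrays (CDC34tm replicates 1, 3 and 4, WT replicates 1 and 4), and the log2 fold change was 0.18 (adjusted p = 0.118) without WT replicates 1 and 4. SNF1, the kinase gene, fell by 0.60, with 1348 to 1668 in CDC34tm and 2245 to 2369 in WT (limma adjusted p = 2.75e-04). HAP4, the activating subunit of the Hap complex for respiratory genes, fell 1.95-fold, with 446 to 538 in CDC34tm and 879 to 1102 in WT (limma adjusted p = 7.34e-05). HXK2, the hexokinase that takes part in glucose repression, fell slightly (-0.16, limma adjusted p = 0.0209), and this call was lost after median centring (-0.11, adjusted p = 0.156). It was also lost without CDC34tm replicate 1 or 4, without WT replicate 1, without WT replicates 2 and 3 and without the trend in eBayes.

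Of 13 GID ligase genes with UCC1 that were looked for, the platform's gene table named 10, of which 0 rose and 2 fell, with a median of -0.17. The falls are at the 19.7% of all probe sets called lower, and 18.9% were called higher. In the same limma fit, 3 of these genes had estimates above 0, and of these VID24 alone was below 0.05 in its unadjusted p. The counts depended on which WT cultures were used: with WT replicates 1 and 4 left out, 2 were called higher and 2 lower, and with WT replicates 2 and 3 left out, 1 higher and 6 lower. GID8, a core subunit, fell by 0.56 (limma adjusted p = 0.00603) and GID7 by 0.37 (limma adjusted p = 0.0221). GID8 read 435 to 479 in CDC34tm, and 666, 571, 643 and 890 in WT replicates 1 to 4. It stayed called across the alternative settings, with log2 fold changes of -0.73 to -0.40. GID7 was not called without WT replicate 1, or without WT replicates 1 and 4. VID24, the receptor that binds Fbp1, had a log2 fold change of 0.36 (95% interval 0.03 to 0.69, limma adjusted p = 0.0788), and was called without WT replicate 2 (0.44) or 3 (0.46), without both (0.62) and after median centring (0.41). Without WT replicates 1 and 4 it was 0.09 (adjusted p = 0.386). UBC8, the conjugating enzyme of this ligase, had a log2 fold change of 0.09 (limma adjusted p = 0.656). It was called higher without WT replicates 1 and 4 (0.39, adjusted p = 0.00861) and lower without WT replicates 2 and 3 (-0.20, adjusted p = 0.0472). UCC1, the F-box protein through which an SCF ligase marks Cit2, had a log2 fold change of -0.16 (limma adjusted p = 0.105) and was called without WT replicates 1 and 4 (-0.27, adjusted p = 0.0103).

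Fatty acid oxidation and peroxisome genes under Adr1 and Oaf1 gave 1 rise and 2 falls among 11, with a median of -0.10. Both counts are under the 18.9% higher and 19.7% lower of all probe sets. SPS19, a peroxisomal dienoyl-CoA reductase gene, rose 2.33-fold, with 135 to 175 in CDC34tm and 44.5 to 77.4 in WT (limma adjusted p = 3.0e-04). CTA1, the peroxisomal catalase and a known target of Adr1, fell by 0.48, with 115 to 142 in CDC34tm and 148 to 227 in WT (limma adjusted p = 0.0155), and FOX2, a beta-oxidation enzyme gene, by 0.27 (limma adjusted p = 0.048). Both falls were lost after quantile normalization (adjusted p = 0.0678 for CTA1 and 0.0791 for FOX2). The CTA1 call was also lost without WT replicates 2 and 3 (-0.32, adjusted p = 0.0701), and CTA1 was -0.63 without WT replicates 1 and 4 (adjusted p = 0.00353). FOX2 moved the other way with these arrays, at -0.11 without WT replicates 1 and 4 (adjusted p = 0.292) and -0.44 without WT replicates 2 and 3 (adjusted p = 8.39e-04). It was also not called after median centring, with the replicate block, or without any 1 array other than WT replicates 2 and 3. The signals of POX1 and POT1, other genes of beta-oxidation, stayed near background, at 16.5 to 25.98 and 12.4 to 23.6 in CDC34tm and 15.7 to 24.3 and 15.5 to 23.7 in WT.

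**Figure D5:**
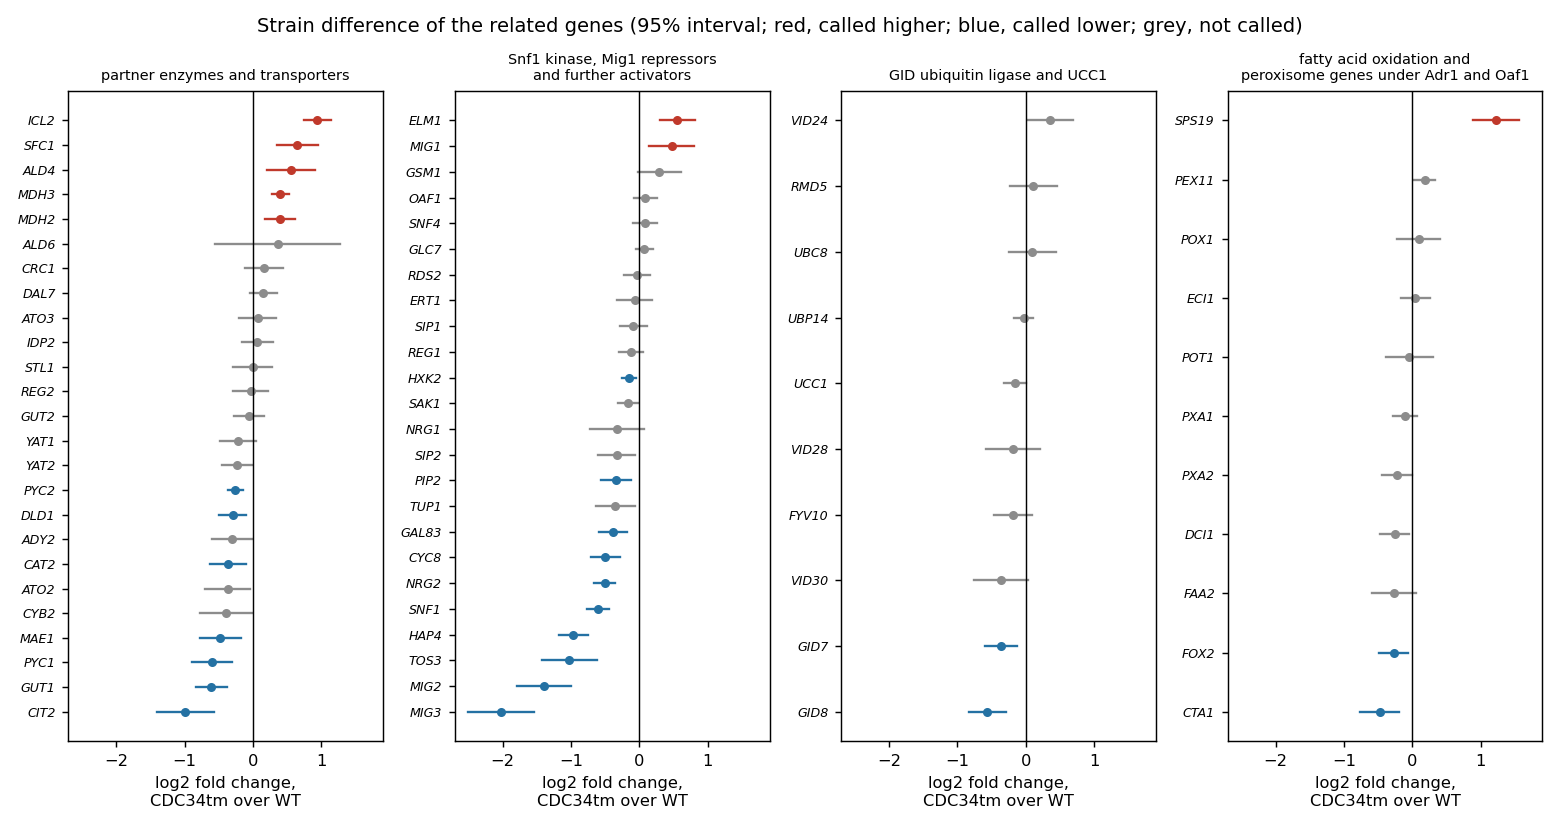
Log2 fold change of signal + 16, CDC34tm over WT, with 95% intervals for the genes of the 4 related lists, each sorted by value; red marks genes called higher, blue called lower and grey not called. MIG3 and MIG2 lie lowest among the regulators, CIT2 lowest and ICL2 highest among the partner enzymes.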

How the data were processed

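The authors deposited array intensities, 1 linear value per probe set and array; the submitters' processing notes name MAS5, and the sources used here give neither its version nor a scaling target. By its values, each array had a mean of 1000 after trimming 2% of probe sets at each end, so the data cannot show whether total mRNA per cell differed. Among 10928 probe sets, the platform's gene table named 1 S. cerevisiae gene for 5498 and 1 S. pombe gene for 1746, and several genes for 1; 213 were controls. A probe set was tested when above the background of its array on at least 4 of 8 arrays, which kept 5437, all 10 members included. SIP4 passed on 7 arrays and the others on 8, and none passed through 1 strain alone. A gene with several probe sets would have been read from the brightest, but each gene looked for had 1.

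Signals were tested genome-wide as log2(signal + 16), CDC34tm minus WT, with limma 3.58.1 in R 4.3.3 (lmFit, eBayes with trend), two-sided. The steps were first tested on simulated data. With 4 arrays per strain, their number sets the precision. The labels name separate cultures and no batch. Members and lists were chosen with earlier results of these data known. Named in the text are all 10 members, up to 4 called genes of each related list with the smallest adjusted p, and UBC8, VID24, UCC1, MIG1, SNF1, HXK2, MDH2 and CIT2. Also named are the 2 most similar profiles for each called member, and, chosen after their values were seen, DAL7, PYC1, SFC1, ALD4, ALD6, ELM1, TOS3, SAK1, POX1 and POT1, sequence relatives (ADH1, ACS2) and neighbouring genes. Alternatives were pseudocounts of 1 and 64, quantile normalization, median centring, no filter, a filter on all 8 arrays, no trend, a replicate block, and leaving out arrays. No sequences were used here, and gene start coordinates served only to put genes in order for the neighbouring genes. GID10, GID11 and GID12 were not found by symbol in the gene table.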

Additional observations from a re-analysis of the deposited data

Results flagged for a closer look

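In 3 of 60 groups of 4 arrays (30 named genes in 2 strains), 1 array stood far from the other 3, by a gap relative to the range of log2 signals above Dixon's 95% critical value for 4 samples. Chance gives about 1 in 20 groups. JEN1 read 102 on WT replicate 3, against 65.4 to 70.02 on the other WT arrays (gap ratio 0.85). MDH2 read 3167 on WT replicate 2, against 2326 to 2406 (gap ratio 0.891). MIG2 read 3949 on WT replicate 3, against 2220 to 2410 (gap ratio 0.857). Without WT replicate 3, JEN1 stayed not called (log2 fold change 0.29, limma adjusted p = 0.111). The high signals of CDC34tm replicate 4 for FBP1 and PCK1 did not reach this limit.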

How the results depend on the processing

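CAT8 was called higher and ICL1 lower under every alternative run, with log2 fold changes of 0.89 to 1.66 and -0.90 to -0.67. Of the 10 genes, 1 in place of 2 was called higher with a pseudocount of 1 and with the filter on all 8 arrays, which leaves SIP4 out, and 1 to 3 when single arrays were left out. SIP4 was also not called without WT replicates 1 and 4 (adjusted p = 0.082). Log2 fold changes near 0 changed sign without being called. With single arrays left out, MLS1 ran from -0.027 (without CDC34tm replicate 4) to 0.25, ADH2 from -0.046 (without CDC34tm replicate 4) to 0.52, ACS1 from -0.022 (without WT replicate 2) to 0.17, and UBC8 from -0.046 (without WT replicate 2) to 0.20. Without WT replicates 2 and 3 together, MLS1 was -0.033 and ACS1 -0.080, and UBC8, called, was -0.20. Without WT replicates 1 and 4 together, ADH2 was -0.037. The cause of these changes was not tested. Single arrays left out gave 756 to 1055 probe sets higher and 833 to 1064 lower over the whole table, and 6 to 9 higher and 17 to 21 lower over the 4 related lists, where 8 and 21 were called with all arrays.

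The replicate numbers are not known to pair cultures, and deviations of same-numbered arrays correlated at 0.04, 0.23, -0.08 and 0.06. With the number as a replicate block, 975 probe sets were higher and 1018 lower, and 3 of the 10 genes were higher and 1 lower: ADR1 was called (0.75, adjusted p = 0.0198) and SIP4 had adjusted p = 0.0204. Reading every probe set of a gene could not differ, since each had 1. FBP1, MLS1 and SIP4 lie near background, which limits the precision of their fold changes.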
